A study of Mus musculus with 2 samples.

Results

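A set of 10 genes of the PPAR, ERR and PGC-1 circuit, which governs fuel use and mitochondrial content, was followed in the newborn mouse heart. The members were the rows whose gene identifier carries the symbol Ppara, Ppard, Pparg, Ppargc1a, Ppargc1b, Esrra, Esrrb, Esrrg, Rxra or Nrip1 in the GENCODE mouse annotation, 10 of 43346 genes. All 10 were found in both libraries. The samples formed 1 group, hearts of healthy mice of the strain B6NTac;B6NCrl/Lap on postnatal day 0, male and female pooled, with no treatment and 2 biological replicates. Hearts of 15 mice were pooled for replicate 1, and no pool size is stated for replicate 2. The labels describe the isolates as independent and give both the same donor label. Stranded paired-end libraries were made from RNA above 200 nucleotides after removal of ribosomal RNA. The libraries held 71186117 and 75105452 expected counts, the fragments assigned to genes by an estimate that need not be whole.

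PPARs (peroxisome proliferator-activated receptors) are nuclear receptors that bind fatty acids and pair with a retinoid X receptor to switch on genes of fatty acid uptake and oxidation. ERRs (estrogen-related receptors) are orphan nuclear receptors that drive genes of the respiratory chain and the citric acid cycle. The PGC-1 proteins are coactivators that dock on both families, and Nrip1, also called RIP140, is a corepressor that opposes them. After birth the heart is known to turn from glucose and lactate to fatty acids, a switch in which these factors take part.

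The receptors tell their DNA sites apart through a short helix of the first zinc finger, the P-box. Its codons are shown for the 7 receptors because they set the ERR genes apart from the PPARs and Rxra. Each line is on the coding strand, 5′ to 3′, with the P-box codons in capitals, from the GENCODE M21 transcripts (GRCm38).
Esrra: tgtGAGGCCTGCAAAGCCttcttc
Esrrb: tgcGAGGCTTGCAAGGCGttcttc
Esrrg: tgtGAAGCCTGCAAGGCAttcttc
Ppara: tgtGAAGGCTGTAAGGGCttcttt
Ppard: tgcGAGGGGTGCAAGGGCttcttc
Pparg: tgtGAAGGATGCAAGGGTtttttc
Rxra: tgtGAGGGCTGCAAGGGCttcttc
The 3 ERR genes encode one P-box and the other 4 genes, the PPARs and Rxra, encode another. No 2 of the 7 genes share the same capitals at the level of DNA. In Esrra the stretch covers bases 286 to 309 of the coding sequence and in Ppara bases 355 to 378, counted from 1 at the start codon.

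Levels are given as TPM, abundance per transcript after division of counts by effective length, scaled to a common total in each library, so that genes of different length can be compared. Detection required 1 TPM in each of the replicates. On this rule 9 of 10 members were detected, against 24.2% of all genes. The exception was Pparg, at 0.98 TPM in replicate 1. Esrra stood above all other members in both replicates, and the mean TPM of Esrra was 36.4 times that of Pparg. With 1 group and 2 libraries no test between conditions could be made. The values below are descriptions, and every SD is over n = 2. In bulk tissue, fewer cells of a type and less RNA per cell cannot be told apart.

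**Figure D1:**
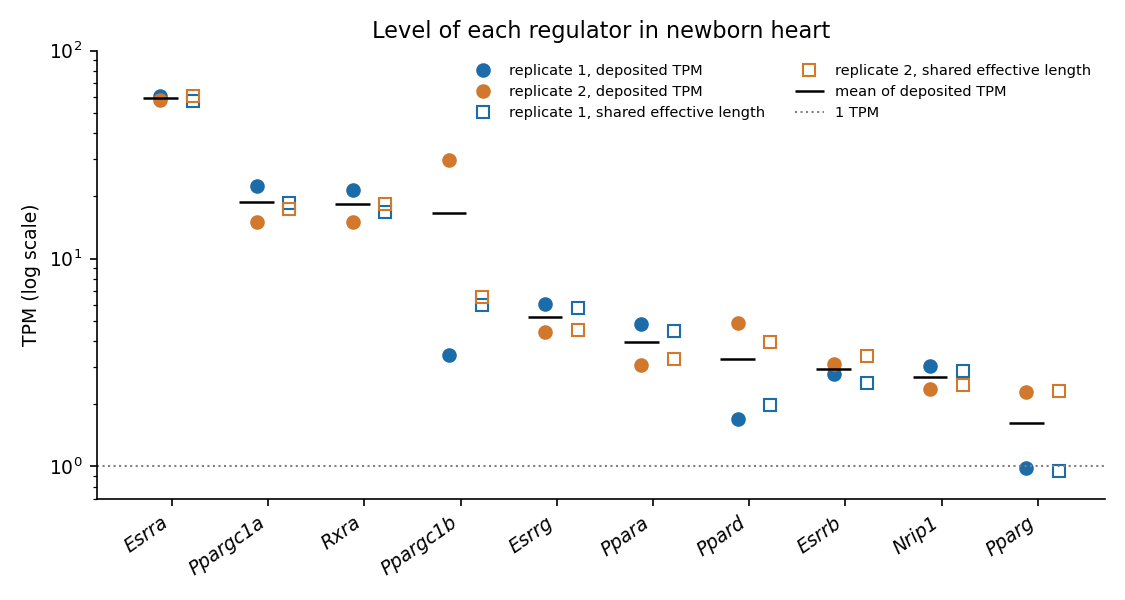
TPM of the 10 members on a log axis, with filled circles for the deposited values of each replicate, black lines for their mean and open squares for values recomputed with 1 effective length for both replicates. Esrra sits at 60.5 and 57.9 TPM, above the rest, and the filled circles of Ppargc1b are far apart while its open squares lie close together.

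Among the receptors, Esrra (ERR alpha, chr19:6910977-6921813, minus strand) had 60.5 TPM in replicate 1 and 57.9 TPM in replicate 2, or 59.2 ± 1.83 (SD). Its counts were 9167 and 9823, and the log2 difference of TPM, replicate 2 minus replicate 1, was -0.09. Both values lay above every value of the other 9 members. Esrra ranked 1 of 49 listed nuclear receptors by mean TPM. Thra, the thyroid hormone receptor alpha gene, was nearest to it among 66 receptors and coregulators, with 49.0 and 62.0 TPM. In deposited TPM Thra was thus the higher of the pair in replicate 2. With 1 effective length for both replicates Esrra was the higher in each, at 57.2 and 60.5 TPM against 50.9 and 58.7. Trmt112, a methyltransferase partner encoded on the opposite strand, overlaps Esrra and had 1161 and 1249 counts. The libraries were stranded, but no source used here says whether the counting used the strand.

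The bases just upstream of the 5′ end of the leading transcript, Esrra-201, are shown for the most abundant receptor, on the minus strand at chr19:6921814-6922058 (RefSeq promoter table, GRCm38.p6). Capitals mark the letters GCATGCGC, the core of the site of NRF1, a regulator of mitochondrial genes.
Esrra: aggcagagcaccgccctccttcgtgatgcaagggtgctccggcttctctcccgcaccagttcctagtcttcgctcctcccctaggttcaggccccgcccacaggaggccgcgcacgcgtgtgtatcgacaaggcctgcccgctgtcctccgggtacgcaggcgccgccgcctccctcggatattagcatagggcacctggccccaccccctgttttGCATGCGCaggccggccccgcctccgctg
The core GCATGCGC, searched on both strands, was present in 2.71% of 32851 RefSeq promoter windows, each 250 bases before to 50 after a start site and so longer than the stretch printed. A match is a description of letters and not a measured binding site.

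Esrrg (ERR gamma, chr1:187608791-188214885, plus strand) had 6.02 and 4.45 TPM, or 5.24 ± 1.11 (SD), with 3098 and 2460 counts. Esrrb (ERR beta, chr12:86361117-86521628, plus strand), known best from pluripotent cells, had 2.79 and 3.12 TPM, with 1014 and 1386 counts. The values of Esrrg lay above those of Esrrb in both replicates, and neither gene overlapped Esrra. Esrra made up 87.3% and 88.4% of the summed TPM of the 3 ERR genes. The log2 ratio of Esrra to Esrrg was 3.31 and 3.67, and that of Esrra to Esrrb was 4.39 and 4.17. The ratio of Esrrg to Esrrb was smaller, at 1.08 and 0.50.

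The yardstick for such ratios was the spread of single genes between the replicates. Among the 11594 genes with a mean TPM of at least 1, 95% differed between replicates by less than 2.15 on the log2 scale. A pair was called unequal when its ratio passed that limit in the same direction in both replicates. Of 14 pairs 6 were called: Esrra over Esrrg, Esrrb and Ppara, Rxra over Rxrg, Ppargc1a over Pprc1, and Ppargc1a over Nrip1.

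Ppara (chr15:85734983-85802819, plus strand), the PPAR of heart and liver that controls fatty acid oxidation, had 4.83 and 3.08 TPM, or 3.96 ± 1.24 (SD). Its counts were 1196 and 888. Ppard (chr17:28232700-28301474, plus strand), the widely expressed PPAR, had 1.69 and 4.88 TPM with 507 and 1031 counts. Pparg (chr6:115360951-115490399, plus strand), the regulator of fat cell formation, had 0.98 and 2.27 TPM. Its counts were 153 and 374, with 95% exact Poisson intervals of 130 to 179 and 337 to 414, which cover counting error only. Ppara was the highest PPAR in replicate 1 and Ppard in replicate 2. The log2 ratio of Ppara to Ppard was 1.46 and -0.65, so their order was not settled by these libraries. Ppara made up 64.4% of the PPAR TPM in replicate 1 and 30.1% in replicate 2. The 3 PPAR genes summed to 7.5 and 10.2 TPM, below the 69.3 and 65.5 TPM of the 3 ERR genes. The log2 ratio of Esrra to Ppara was 3.62 and 4.19.

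The window upstream of Ppara-202 is shown because its 5′ end lies between those of the other Ppara transcripts used here, on the plus strand at chr15:85735714-85735775 (RefSeq, GRCm38.p6). Capitals mark GCATGCGC and its reverse complement, which overlap.
Ppara: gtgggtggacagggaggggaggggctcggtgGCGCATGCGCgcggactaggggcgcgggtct
Ppara and Esrra were the members whose windows held this core, among 17 windows of 9 members. The site AAGGTCA, which ERRs bind, was found in the window of Rxra-202 alone, and 4.72% of all windows held it. The PPAR element, the direct repeat of AGGTCA with 1 base between, was found in no member window and in 0.0396% of all windows, and the cyclic AMP element TGACGTCA in no member window and 1.79% of all. The absence of these letters holds for these windows only. Ppargc1b had no window and was not searched. The window of Ppargc1a lay at the upstream start, that of Ppargc1a-202. The start of its leading transcript, Ppargc1a-203, was not searched.

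Rxra (chr2:27676440-27762957, plus strand), the retinoid X receptor that partners the PPARs, had 21.4 and 15.1 TPM, or 18.2 ± 4.48 (SD), with 6289 and 6995 counts. TPM was lower and the count higher in replicate 2. The gene's effective length, which RSEM averages over the transcripts it assigns, was 2782 nucleotides in replicate 1 and 4187 in replicate 2. Rxra made up 63.3% ± 4.66 (SD) of the TPM of the 3 RXR genes. Rxrb followed with 10.7 and 8.81 TPM, and the log2 ratio of Rxra to Rxrb was 1.00 and 0.77, within the limit. Rxrg had 0.07 and 1.25 TPM from 11 and 189 counts. The log2 ratio of Rxra to Ppara was 2.13 and 2.26, just inside the limit in replicate 1 and past it in replicate 2.

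**Figure D2:**
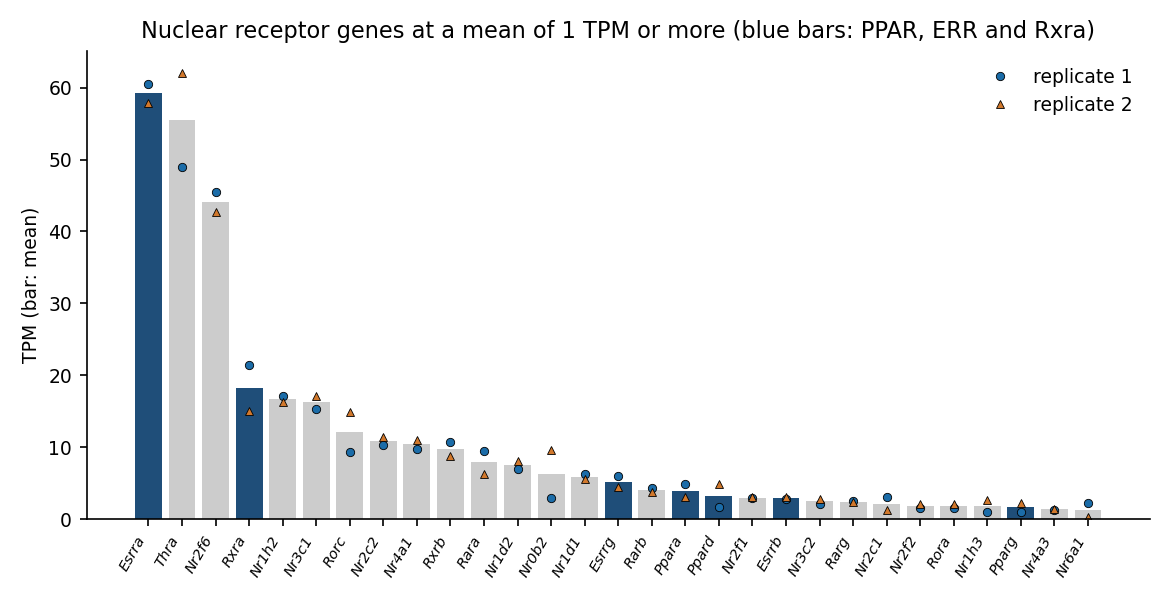
Mean TPM (bars) and the value of each replicate (points) for the listed nuclear receptors with a mean TPM of at least 1, with the members in blue. Esrra leads by mean with Thra and Nr2f6 behind it, Rxra ranks 4, and the PPAR genes lie below 5 TPM.

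Of the 49 nuclear receptors listed, 26 were detected, against 24.2% of all genes. Esrra, Thra, Nr2f6 and Rxra had the highest means, and Nr2f6, an orphan receptor, had 45.4 and 42.7 TPM. Esrrg ranked 15, Ppara 17, Ppard 18, Esrrb 20 and Pparg 27 by mean. The 7 member receptors made up 31.1% and 27.5% of the summed receptor TPM. Hnf4a, Hnf4g, Nr0b1, Nr1h5, Nr1i2, Nr1i3, Nr2e1, Nr5a1 and Pgr had 0 counts in both libraries, which allows up to 3 counts in each.

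The nearest receptor or coregulator of each detected member was taken by distance of log2(TPM + 0.1) over the 2 replicates, a measure too small to speak for shared control. Esrrb lay nearest to Nr2f1 (2.96 and 3.06 TPM), Esrrg to Nr1d1 (6.31 and 5.53 TPM) and Ppara to Rarb (4.38 and 3.82 TPM). Ppard lay nearest to Nr3c2 (2.13 and 2.87 TPM), and Nrip1 to Rarg (2.54 and 2.37 TPM). Ppargc1a and Rxra were each other's nearest, at a distance of 0.06. In deposited TPM Ppargc1b was the most isolated, with Ncoa3 (4.60 and 12.9 TPM) at a distance of 1.27. The distance was not taken with a shared effective length, where Ppargc1b had 5.98 and 6.53 TPM.

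Among the coactivators, Ppargc1a (PGC-1 alpha, chr5:51454250-51567726, minus strand), the inducible coactivator of mitochondrial biogenesis, had 22.3 and 15.0 TPM, or 18.6 ± 5.16 (SD). Its counts of 8124 and 7732 were closer together, with a log2 difference of -0.15 against -0.59 for TPM. Ppargc1b (PGC-1 beta, chr18:61298136-61400431, minus strand), its close relative, had 3.43 and 29.8 TPM, a mean of 16.6 ± 18.7 (SD). Its counts were 1206 and 1334, a log2 difference of 0.07. The replicates of Ppargc1b thus stood 8.70-fold apart in TPM and 1.11-fold apart in uncorrected counts. Pprc1, the third gene of the family, had 1.64 and 1.78 TPM, and the log2 ratio of Ppargc1a to Pprc1 was 3.68 and 3.00. The log2 ratio of Ppargc1a to Ppargc1b was 2.66 and -0.99 in TPM, and 1.62 and 1.40 with a shared effective length, so that the pair was not called unequal.

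The gap in Ppargc1b came with 1 short transcript. Ppargc1b-203, a processed transcript of 366 nucleotides with 2 exons and no coding sequence in GENCODE M21, received 0 counts in replicate 1 and 231 in replicate 2. Its effective length was 78.2 nucleotides in replicate 2, so that these counts gave 26.7 TPM. It held 89.5% of the gene's TPM in replicate 2 but 17.3% of the gene's counts. The gene's effective length was 3330 nucleotides in replicate 1 and 404 in replicate 2. Without transcripts under 1000 nucleotides, an alternative chosen after seeing the data, Ppargc1b had 3.43 and 3.14 TPM. With the mean effective length applied to both replicates it had 5.98 and 6.53 TPM. Mir378a, a microRNA known to lie within Ppargc1b, was not analysed here.

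Nrip1 (RIP140, chr16:76287400-76373827, minus strand), the corepressor, had 3.03 and 2.37 TPM, or 2.70 ± 0.467 (SD), with 2100 and 1821 counts. Its log2 ratio to Ppargc1a was -2.84 and -2.61, so the corepressor lay below the coactivator in both replicates and on the scale of counts.

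In order of mean TPM the members were Esrra, Ppargc1a, Rxra, Ppargc1b, Esrrg, Ppara, Ppard, Esrrb, Nrip1 and Pparg. Esrra and Ppargc1a did not overlap. From Ppargc1a down to Nrip1 each neighbour in the order overlapped the next, and Nrip1 and Pparg were apart by 2.37 against 2.27 TPM. With a shared effective length, Ppargc1b was separate from Rxra above it and from Esrrg below it.

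The replicates were then compared across the members. Differences are log2((TPM in replicate 2 + 0.1)/(TPM in replicate 1 + 0.1)), centred to a median of 0 over the genes whose mean reached 1 TPM. Of the 10 members, 3 were 2-fold or more apart in TPM, against 19.0% of the 11594 genes. All 3 were higher in replicate 2, a 2-fold difference in that direction being found in 10.1% of these genes. They were Ppargc1b (3.06), Ppard (1.45) and Pparg (1.11). In counts 1 member, Pparg (1.21), was 2-fold apart, against 15.0% of the genes, and Ppard was just inside at 0.95. The other 7 members were under 2-fold apart on both scales. Ppara was the lowest of them, at -0.65 in TPM and -0.50 in counts.

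**Figure D3:**
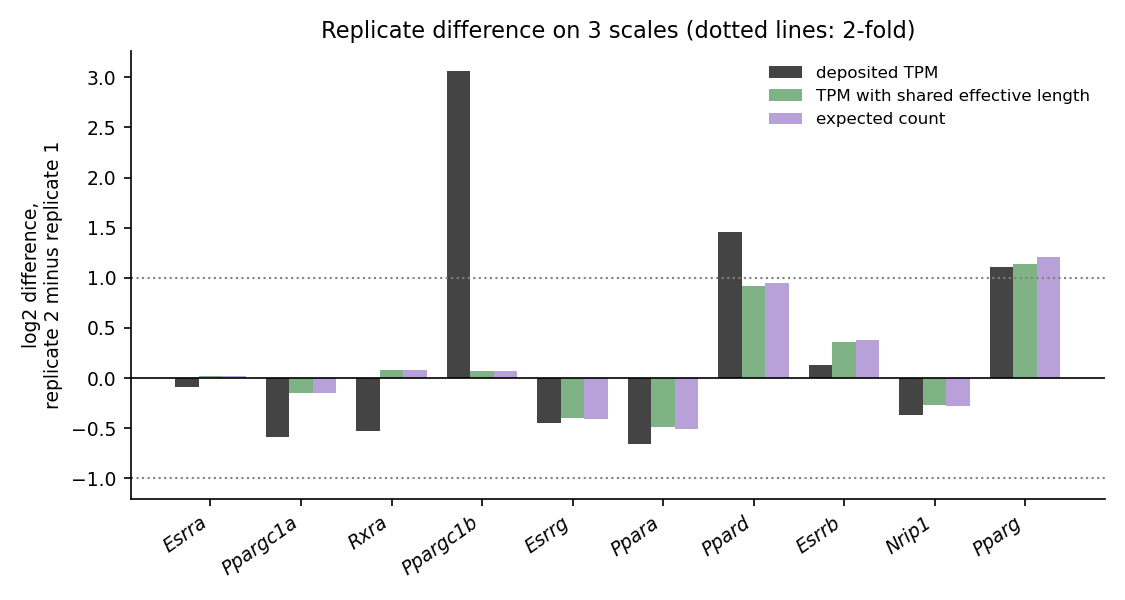
Difference between replicates of each member on the log2 scale in deposited TPM, in TPM with a shared effective length and in expected counts, with dotted lines at 2-fold. The bar of Ppargc1b reaches 3.06 in TPM and 0.07 in counts, while the bars of Pparg pass 2-fold on all 3 scales.

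Effective length was 2-fold or more apart between replicates for 1 member, Ppargc1b, against 5.76% of the genes. The intervals of TPM that the authors deposited did not overlap between replicates for 8 of 10 members, Esrra and Esrrb being the exceptions, against 73.3% of the genes. The median absolute log2 difference of the members was 0.56 in TPM and 0.33 in counts, beside 0.40 and 0.35 over all genes at that level.

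Values of other cell types differed between the libraries. The tissue label was met by the cardiomyocyte list, of which 10 of 10 genes were detected and 0 were 2-fold apart. Actc1 (5636 and 5468 TPM), Myl2, Myh6 and Tnni3 were its highest. Of all genes 24.2% were detected, and of the 11594 genes 19.0% were 2-fold apart in TPM. The 9 urothelial markers summed to 25.9 and 107 TPM, with Krt20 at 0 counts in both. Upk3b, with 18.3 and 16.8 TPM, made up most of the sum of replicate 1. Of the 6 at a mean of 1 TPM, 5 were 2-fold or more higher in replicate 2 and 0 lower, against 10.1% of the 11594 genes higher. Among them were Upk3a (0.07 and 32.6 TPM), Upk1a (0.33 and 21.3 TPM) and Upk1b (5.01 and 20.5 TPM). The 7 smooth muscle markers summed to 606 and 1002 TPM, with Acta2 (280 and 395 TPM) and Des (256 and 314 TPM) highest. Of the 7, 3 were 2-fold or more higher in replicate 2, 0 lower and 4 under 2-fold apart. The 3 were Tagln (16.83 and 160.35 TPM), Cnn1 (8.14 and 49.01 TPM) and Myh11 (1.01 and 24.97 TPM). The 8 thymocyte markers summed to 7.44 and 0.57 TPM, with Cd3e at 0 counts, and the 7 lung epithelium markers to 4.23 and 0.40 TPM, with Nkx2-1 and Sftpd at 0 counts. The 9 adipocyte markers, of note beside Pparg, summed to 6.97 and 13.7 TPM, with Cidea at 4.14 and 11.2 TPM and Cfd, Lep, Retn and Ucp1 at 0 counts in both. Adipoq, a defining gene of fat cells, had 20 and 0 counts. Macrophage markers, among which Pparg is also known, summed to 52.2 and 59.2 TPM, endothelial markers to 356 and 365 TPM and liver markers to 24.5 and 26.9 TPM, with Hnf4a at 0 counts. The part of these cells in the differences of Pparg, Ppard and the target genes was not tested.

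Splice forms decide the effective length behind each TPM. The deposited tables gave 49 transcripts for the 10 members, of which 13 had 0 counts in both replicates. A transcript with 80% or more of its gene's TPM in both replicates was called major, and 2 members had one. The same transcript led in both replicates for 8 of 10 members, and Ppargc1b and Ppara were the exceptions. Neither count was set beside the same count over all genes, so neither shows whether the members were unusual.

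**Figure D4:**
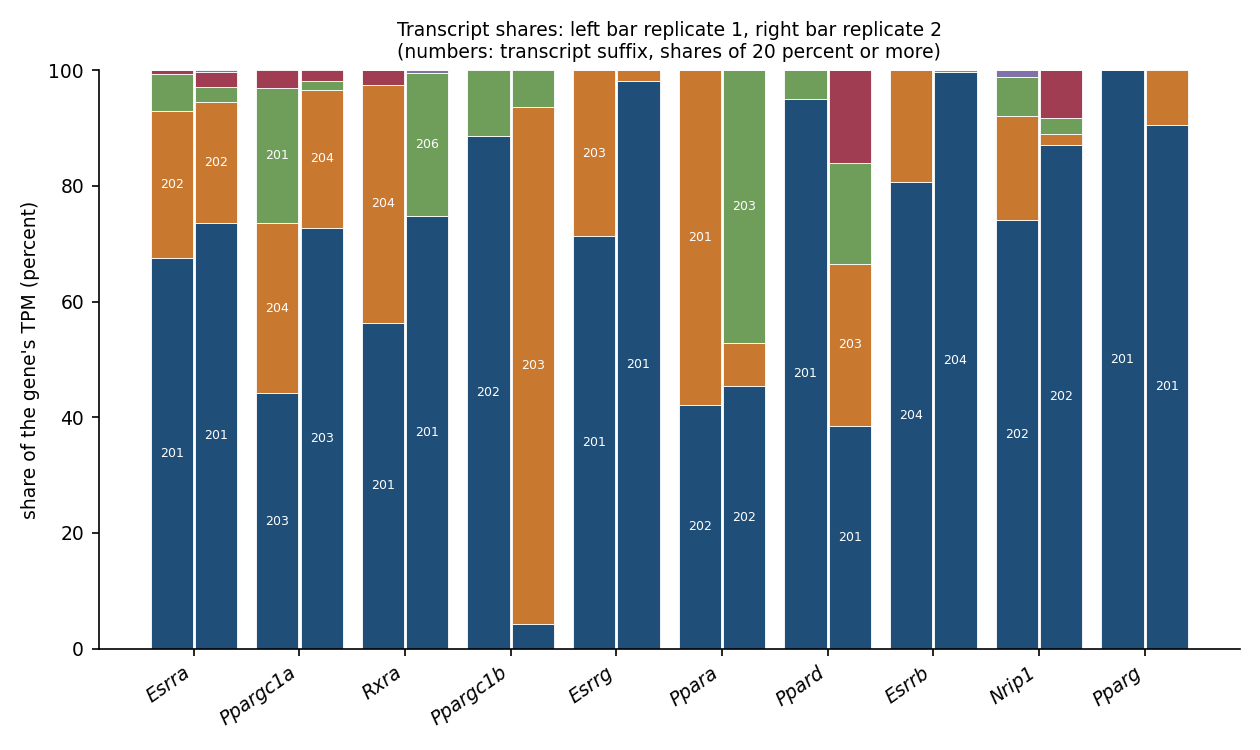
Share of each member's TPM by transcript in percent, with the left bar for replicate 1 and the right bar for replicate 2, and the transcript suffix printed in shares of 20% or more. Esrrb and Pparg keep 1 transcript above 80% in both replicates, whereas the bars of Ppargc1b exchange Ppargc1b-202 for Ppargc1b-203.

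Esrrb-204 held 80.6% and 99.8% of Esrrb. Pparg-201 held 100% and 90.6% of Pparg. It has the longer coding sequence of the Pparg transcripts in M21 (1515 bases, against 1425 in Pparg-202), that of the gamma 2 form known from fat. The share is an estimate from 153 and 374 counts, and the deposited lengths of both Pparg transcripts differ from those in M21. Esrra-201 led with 67.6% and 73.5%, and Esrra-202, a retained intron form, held 25.3% and 20.9%. In counts Esrra-201 held 92.0% and 93.8%.

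Esrrg-201 held 71.3% and 98.1% of Esrrg, and Esrrg-203, which starts far upstream and has 1305 coding bases against 1374, held 28.7% and 1.87%. The counts of Esrrg-203 were 830 and 41.9, and those of Esrrg-201 were 2268 and 2418. The lower Esrrg count of replicate 2 thus lay in the transcript with the distal start. The sequences before both starts are shown for that reason, on the plus strand, from RefSeq (GRCm38.p6). The distal one, chr1:187608900-187609005, ends at a RefSeq start 23 bases from that of Esrrg-203, and the proximal one, chr1:187997577-187997826, ends at the start of Esrrg-201. Capitals mark a match to the motif of MEF2, a muscle transcription factor.
Esrrg distal: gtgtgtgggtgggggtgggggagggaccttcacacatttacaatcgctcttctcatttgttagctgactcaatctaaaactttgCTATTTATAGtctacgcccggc
Esrrg proximal: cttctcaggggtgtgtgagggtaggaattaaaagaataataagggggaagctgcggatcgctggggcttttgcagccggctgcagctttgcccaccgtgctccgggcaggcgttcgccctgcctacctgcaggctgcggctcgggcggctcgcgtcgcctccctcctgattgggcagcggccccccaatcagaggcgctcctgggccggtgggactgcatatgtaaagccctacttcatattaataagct
The MEF2 motif, searched on both strands, was present in 0.557% of all windows and in no other member window. The motifs and windows were chosen after the sequences had been read.

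For Ppara, Ppara-201 led in replicate 1 with 57.8% and had 7.55% in replicate 2, where Ppara-203 led with 47.1% after 0% in replicate 1. Ppara-202 was steadier, at 42.2% and 45.3%. All 3 have a coding sequence of 1404 bases in M21 and differ at their ends. Ppard-201 held 95.1% and 38.5% of Ppard, and Ppard-203, a retained intron form without coding sequence, held 0% and 28.1%. The counts of Ppard-201 were 497 and 609, closer than the gene's 507 and 1031. The coding transcript that led Ppard was thus nearer between replicates than the gene total.

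Rxra-201 held 56.3% and 74.9% of Rxra. Rxra-204, of 628 nucleotides, held 41.2% and 0%, and Rxra-206 held 0% and 24.7%. Rxra-201 and Rxra-206 have the same coding length of 1401 bases. The counts of Rxra-201, 5880 and 5774, differed little. Ppargc1a-203, with 2391 coding bases, held 44.1% and 72.7% of Ppargc1a, and in counts 78.8% and 96.3%. Ppargc1a-204 held 29.4% and 23.9%, and Ppargc1a-201 held 23.4% and 1.42%. The deposited lengths of these last 2 differ from M21, where both are classed as nonsense-mediated decay. The Ppargc1a transcripts with the upstream start, Ppargc1a-202 and Ppargc1a-204, together held 4.87% and 2.92% of the gene's counts. The transcript leading Nrip1, of 7868 nucleotides, held 74.1% and 87.1%. Ppargc1b-202, with 3042 coding bases, held 88.7% and 4.18% of Ppargc1b, and 89.7% and 34.8% of its counts.

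Of the 17 coactivators and corepressors listed, 17 were detected, against 24.2% of all genes. Ncor1, a corepressor scaffold, was highest by mean at 14.3 and 34.1 TPM, followed by Hdac3, its deacetylase partner, at 25.1 and 21.3 TPM, then Ppargc1a and Ppargc1b. With a shared effective length the order turned: Hdac3 lay above Ncor1 in both replicates, and Ppargc1b at 5.98 and 6.53 was no longer among the 4 highest. In TPM 4 of 17 were 2-fold higher in replicate 2, against 10.1% of the 11594 genes, and 0 were 2-fold lower. In counts 1 of 17 was 2-fold apart, below the 15.0% of those genes. The counts of Ncor1 were 6753 and 6661, so that its gap, like that of Ppargc1b, appeared in TPM and not in counts. The list's median log2 difference was 0.04 in TPM and -0.11 in counts, beside 0 for all genes by centring. The nuclear receptors whose mean reached 1 TPM, 29 of 49, had a median log2 difference of 0.09 in TPM and -0.03 in counts, and 4 were at least 2-fold higher and 2 at least 2-fold lower in replicate 2 in TPM. These 6 of 29 lie near the 19.0% of the 11594 genes that were 2-fold apart.

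The inputs to PGC-1, kinases, deacetylases and transcription factors known to act on it, were all found at 1 TPM or more, 15 of 15. Of all genes 24.2% were detected. In TPM and in counts 0 of 15 were 2-fold apart, against 19.0% and 15.0% of the 11594 genes. Their median log2 difference was -0.15 in TPM. Prkag1 (31.8 and 30.6 TPM), Prkaa2 (21.8 and 17.0 TPM) and Prkag2 (18.8 and 17.1 TPM), subunits of the energy sensor AMPK, were highest, followed by Foxo3 (18.5 and 13.8 TPM). Of 8 mitochondrial biogenesis factors 7 were detected, with a median log2 difference of -0.23 in TPM. Nrf1 had 20.4 and 23.9 TPM, Polrmt, the mitochondrial RNA polymerase, 9.56 and 14.9 TPM, Yy1 10.6 and 7.06 TPM, and Gabpa 9.09 and 5.29 TPM. Tfb1m, which methylates mitochondrial ribosomal RNA, was the one not detected, with 2.91 and 0.06 TPM from 319 and 7 counts. Tfb1m and Gabpb1 (3.97 and 1.34 TPM) were the 2 of 8 factors more than 2-fold lower in replicate 2, and 0 were 2-fold higher. Of the 11594 genes 1032 were 2-fold or more lower.

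The known targets of the regulators were listed as PPAR targets, 30 genes, and ERR and PGC-1 targets, 22 genes, with Acadm and Pdk4 on both lists. Of the PPAR targets 25 of 30 were detected, against 24.2% of all genes. Of the 28 at a mean of 1 TPM, 26 were higher in replicate 2 in TPM and 28 in counts, with a median log2 difference of 0.52 in TPM and 0.55 in counts. The median of all genes was 0 by centring. In TPM 6 of 28 were 2-fold higher, against 10.1% of the 11594 genes, and 0 were 2-fold lower. Fabp3, a carrier of fatty acids in heart muscle, led the list with 538 and 1034 TPM. Hadhb, of the mitochondrial trifunctional protein, had 174 and 290 TPM, Cpt1b, the muscle carnitine palmitoyltransferase, 156 and 178 TPM, and Acadvl, an acyl-CoA dehydrogenase, 98.5 and 124 TPM.

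The genes 2-fold higher were of several roles. Ucp3, an uncoupling protein of muscle mitochondria, had 3 and 685 counts, a ratio per library total of 216 with a 95% counting interval of 73.7 to 1052. Ucp2, its relative, had 14.3 and 37.2 TPM. Angptl4, an inhibitor of lipoprotein lipase, had 1978 and 4286 counts, and Plin5, a lipid droplet protein of oxidative tissue, had 6.07 and 15.6 TPM. Cyp4a14, a fatty acid hydroxylase, had 0.23 and 6.98 TPM from 53 and 173 counts, with an effective length of 2141 nucleotides in replicate 1 and 224 in replicate 2. Fgf21 and Cyp4a10 had 0 counts in both libraries.

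**Figure D5:**
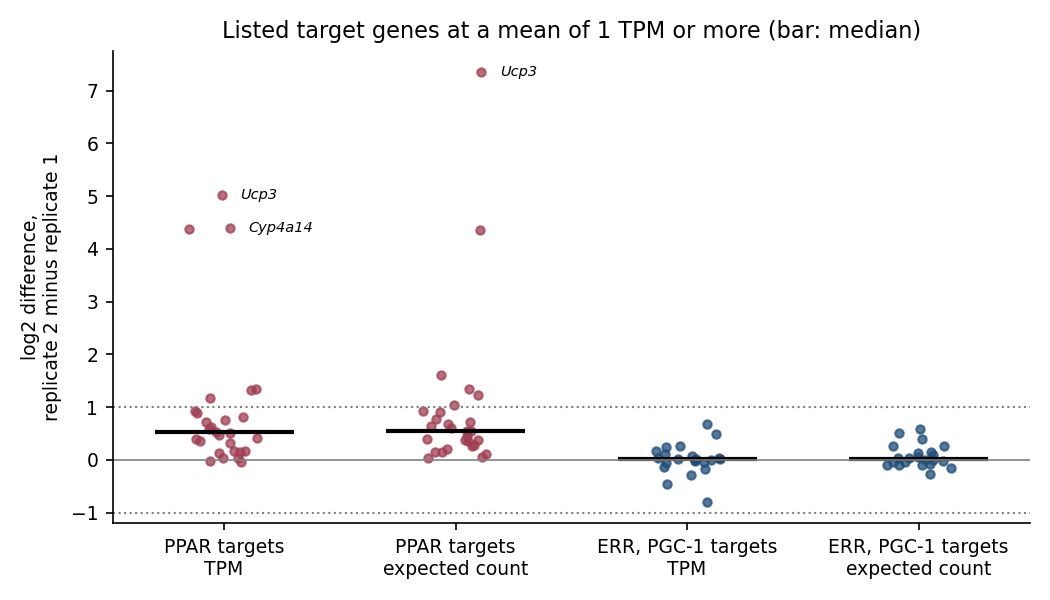
Difference between replicates on the log2 scale for the PPAR targets and the ERR and PGC-1 targets with a mean TPM of at least 1, in TPM and in counts, each point being 1 gene and the black bar the median. The PPAR targets lie around 0.52 in TPM with Ucp3 and Cyp4a14 among those far above, and the ERR and PGC-1 targets lie around 0.02 with none past the dotted 2-fold lines.

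All 22 ERR and PGC-1 targets were detected, against 24.2% of all genes. In TPM and in counts 0 of 22 were 2-fold apart, against 19.0% and 15.0% of the 11594 genes. The median log2 difference of the list was 0.02 on both scales. Atp5b, the beta subunit of ATP synthase, had 6157 and 5163 TPM and Slc25a4, the ADP/ATP carrier of heart, 1621 and 1969 TPM. Uqcrc1, of respiratory complex III, had 459 and 451 TPM. Among the regulators of the PPAR targets, Ppara differed by -0.65 in TPM and -0.50 in counts, Ppard by 1.45 and 0.95, and Pparg by 1.11 and 1.21. Among those of the ERR and PGC-1 targets, Esrra differed by -0.09 in TPM and 0.02 in counts, Esrrb by 0.13 and 0.38, and Esrrg by -0.45 and -0.41. Ppargc1a differed by -0.59 and -0.15, and Ppargc1b by 3.06 and 0.07. The PPAR target list and the PPAR receptors were measured in the same 2 libraries, and the difference between the target lists was not tested.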

How the data were processed

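Expected counts, TPM and FPKM per gene and per transcript were deposited by the authors, with RSEM's column names per the file headers, on GENCODE M4 and mm10 per the deposited notes. No source used here gives the aligner or its version. Each deposited transcript share is a percent of the gene's TPM. The deposited bounds around the posterior mean TPM were treated as a score, their level not being stated. Symbols and coordinates came from GENCODE M21 (GRCm38), which matched 42462 of 43346 genes, and promoter windows from RefSeq (GRCm38.p6). Prmt1, of the 16 inputs to PGC-1 listed, was not analysed here.

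The members and gene lists were chosen with earlier results of these data known. Names were drawn from all members, both genes of each pair, the 4 highest and the 0-count genes of each list, target genes 2-fold apart, the nearest receptor or coregulator, and transcripts leading or at 20% of TPM or more. Tfb1m, Gabpb1, Trmt112, Mir378a, Cnn1, Myh11, Pparg-202 and Ppargc1a-202 fall outside this rule and were named after their values were seen. Some genes that the rule names are not reported here. Differences in TPM used a pseudocount of 0.1 and in counts a pseudocount of 1, both centred to a median of 0 over genes whose mean reached 1 TPM. Shared-length values divide counts by the mean of both effective lengths. No test was made, since 1 group of 2 libraries has none. Python 3.11.15, pandas 2.3.3, R 4.3.3 and edgeR 4.0.16 (TMM scaling of rounded expected counts, as an alternative) were used. Alternatives covered thresholds, pseudocounts, scaling, transcript choice and each replicate left out.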

Additional observations from a re-analysis of the deposited data

How the results depend on the processing

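Rescaling TPM to nuclear protein-coding genes raised every mean: Esrra to 224, Ppargc1a to 70.6, Rxra to 69.1, Ppargc1b to 62.7, Esrrg to 19.8, Ppara to 15.0, Ppard to 12.4, Esrrb to 11.2, Nrip1 to 10.2 and Pparg to 6.14 TPM. Leaving out transcripts under 1000 nucleotides, added after seeing the data, gave means of 41.7 TPM for Esrra and 13.1 for Ppargc1a, and a difference of -0.12 for Ppargc1b, against 3.06. The transcript leading Ppargc1b by mean share, taken alone, gave -1.23. Members 2-fold apart numbered 1 in place of 3 with counts scaled by edgeR's TMM, counts centred on the median or a shared effective length. That member was Pparg, at 1.18, 1.21 and 1.13. With the leading transcript alone the number was also 1, but the member was Ppargc1b, lower in replicate 2, and Pparg was at 0.98. With a pseudocount of 1 TPM the number was 2, and Pparg was not among them, at 0.71. At the 99th percentile as the limit, 0 of 14 pairs were called unequal, in place of 6. Members with a major transcript numbered 2, but 1 by posterior mean shares, 5 by shares of counts and 4 to 5 with 1 replicate left out. The number of members detected ranged from 8 at 2 TPM to 10 at 0.5 TPM. The median differences of both target lists moved by less than the spread of their genes under every alternative run. Depth limited Pparg most, at 153 and 374 counts. No paired analysis was possible because the series holds 1 group. The causes were not tested.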
